A study of Rattus norvegicus with 4 samples.

Results

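The genes described here encode subunits, assembly factors and one inhibitor of the mitochondrial respiratory chain and the ATP synthase, as measured in cultured heart cells of newborn rats given a marine n-3 fatty acid. They were chosen by name alone: a probe entered when its single gene symbol in the array's annotation began with Nduf, Sdh followed by a to d, Uqcr, Cox4, Cox5, Cox6, Cox7, Cox8, Cyc1 or Atp5. It also had to carry a value on all 4 arrays. The rule found 68 probes of 20500 with values, and these gave 64 genes of 9653 named genes after the probes of a gene were averaged. By complex, 20 genes belonged to complex I, 6 to complex II, 8 to complex III, 15 to complex IV and 15 to the ATP synthase (complex V). Assembly factors that share the prefixes, such as Ndufaf2, were counted with the complex they serve, and Ndufa4 and Ndufa4l2 were counted with complex IV. None of the 13 subunits encoded in mitochondrial DNA was among the named genes, so all values concern transcripts made in the nucleus.

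The respiratory chain passes electrons that come from NADH (complex I) and succinate (complex II) through ubiquinol and complex III to complex IV, which reduces oxygen. Complexes I, III and IV pump protons across the inner mitochondrial membrane, and the ATP synthase makes ATP as the protons flow back. Adult heart muscle depends on this pathway for most of its ATP and draws much of its electron supply from fatty acid oxidation.

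Ventricular cells of newborn Wistar rats were cultured with 60 µM eicosapentaenoic acid (EPA) or with 60 µM docosahexaenoic acid (DHA), and control cells received neither. All groups shared HAM F10 medium with fetal calf serum and horse serum at 10% each, renewed every 48 h until the cells were confluent. Each fatty acid was set against control on 2 two-colour Agilent rat arrays with the dyes exchanged: on array 1 the supplemented cells were labelled with Cy5 and on array 2 with Cy3. The labels leave unstated whether the arrays of a swap held the same RNA extracts and whether one control RNA served both fatty acids, so each fatty acid was treated as 1 RNA sample with no replicate check. Cardiomyocytes prepared this way come mixed with non-muscle cells, among them fibroblasts. Because the files give ratios and no levels, the labelled cell type could not be checked against its markers. In RNA from whole cultures, fewer cells of a type and less RNA per cell cannot be told apart.

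Values are read as log2 ratios of fatty acid over control with each array's median at 0. Neither the log base nor the direction is stated. In base 10 every fold would be larger. The direction is an assumption, taken because the sample titles name the supplemented cells. A further reason is that most of 18 genes for the oxidation of fatty acids kept one side of 0 within a swap. With EPA 11 of these genes were positive on both arrays, 1 was negative on both and 6 changed side, and the counts were the same with DHA. Of all named genes, 22% were positive and 22.9% negative on both EPA arrays, and 21.3% and 24.4% on both DHA arrays. Over all named genes, however, the 2 arrays of a swap correlated at r = -0.12 with EPA and -0.04 with DHA. If the table held Cy5 over Cy3 instead, the values of array 2 would turn, and results are given under that reading where it matters. The interquartile range of the deposited values was between 0.19 and 0.26 on the 4 arrays. One array stood apart, the first of DHA: 1084 of its values lay under -1, and 1076 of these were features in the first 66 columns of the grid, as inferred from the feature numbers. These columns hold 30.7% of the features and 15 of the 68 member probes. All probes of 13 members lie there (Atp5f1e, Cox4i1, Cox5b, Cox7a2, Cox7a2l, Ndufa4l2, Ndufa8, Ndufaf2, Ndufaf4, Ndufb5, Ndufc1, Sdhb and Uqcr11). Atp5f1c and Ndufc2 have 1 of their 2 probes there, so 51 members could be described without those columns.

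Many respiratory chain genes are known targets of the transcription factors NRF1 and GABP, of the estrogen-related receptors (ERR) and of YY1. Promoters were therefore searched for the letters of their motifs, and RefSeq promoter sequences of the GRCr8 build matched 57 of the 64 members. The search covered 250 bases upstream of each start on both strands. The NRF1 core (GCGCA, any base, GCGC) was found in 11 of the 57 member promoters (19.3%), against 7.9% of 7934 measured genes and 4.17% of all 27457 promoters. The GABP core CCGGAAG was found in 17 members (29.8%), against 12.8% of measured genes and 7.74% of all promoters. The ERR motif TCAAGGTCA was found in Atp5mc3 alone (1.75%), against 0.227% of measured genes and 0.368% of all promoters. The YY1 motif AAGATGGC was found in 2 members, Atp5me and Atp5pf (3.51%), against 1.97% and 1.69%. No matches of different motifs overlapped in a member promoter. These are letter matches only, and no binding was measured.

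Printed below, 5′ to 3′ on the gene's strand, are 4 of the promoters, with motif matches in capitals. Ndufa5 and Uqcrc1 are shown because they carry the same NRF1 core but had values of opposite sign on each of the 4 arrays, Atp5me because it holds matches of 3 motifs, and Sdha because it holds 2 NRF1 cores. The Ndufa5 match starts 32 bases upstream of the start and the Uqcrc1 match, which reads on the other strand, 64 bases upstream. In Atp5me the NRF1, GABP and YY1 matches start 76, 11 and 183 bases upstream, the last pair on the other strand. The Sdha matches start 89 and 46 bases upstream. The windows are chr4:53971236-53971485 on the minus strand for Ndufa5, chr8:118467973-118468222 on the plus strand for Uqcrc1, chr14:1464610-1464859 on the plus strand for Atp5me and chr1:30764303-30764552 on the plus strand for Sdha.
Ndufa5: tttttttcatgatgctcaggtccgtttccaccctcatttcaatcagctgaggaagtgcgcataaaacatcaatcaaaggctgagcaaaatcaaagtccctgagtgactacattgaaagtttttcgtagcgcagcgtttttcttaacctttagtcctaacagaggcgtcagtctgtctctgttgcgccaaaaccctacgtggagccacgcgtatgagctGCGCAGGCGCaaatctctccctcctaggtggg
Uqcrc1: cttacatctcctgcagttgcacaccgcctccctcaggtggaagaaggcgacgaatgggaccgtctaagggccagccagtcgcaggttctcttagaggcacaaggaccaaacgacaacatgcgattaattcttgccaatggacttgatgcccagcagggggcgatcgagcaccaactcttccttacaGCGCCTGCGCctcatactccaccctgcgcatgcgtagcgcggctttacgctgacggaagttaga
Atp5me: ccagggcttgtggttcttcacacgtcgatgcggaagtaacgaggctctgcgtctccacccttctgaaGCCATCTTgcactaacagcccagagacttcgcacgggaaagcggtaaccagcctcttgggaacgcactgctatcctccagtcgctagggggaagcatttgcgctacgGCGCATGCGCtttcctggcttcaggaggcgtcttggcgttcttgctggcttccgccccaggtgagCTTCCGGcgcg
Sdha: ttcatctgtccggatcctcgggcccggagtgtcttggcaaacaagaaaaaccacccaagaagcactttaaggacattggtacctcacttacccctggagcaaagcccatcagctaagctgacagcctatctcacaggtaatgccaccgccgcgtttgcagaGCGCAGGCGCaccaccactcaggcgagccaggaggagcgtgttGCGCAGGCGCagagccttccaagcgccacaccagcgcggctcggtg

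With values read as log2, no respiratory chain or ATP synthase gene passed the size rule with EPA or with DHA, which asks for at least 1.5-fold in the same direction on both arrays of a swap. With EPA 0 of 64 members were higher and 0 were lower, against 0.0311% and 0% of all named genes. With DHA 0 members were higher and 0 were lower, against 0.0414% of all named genes in each direction. At 1.3-fold the count was also 0 in each direction for either fatty acid, against 0.176% of all named genes higher and 0.0829% lower with EPA, and 0.145% higher and 0.238% lower with DHA. The count of 0 depends on the log base. If the values were log10, 2 members would be higher with EPA (Cox7a2l and Cox7c, 3.12% of members, against 2.37% of all named genes) and 0 lower (against 2.57%). With DHA 0 would be higher (against 1.41%) and 4 lower (Atp5f1e, Atp5mk, Cox7a2 and Ndufc1, 6.25%, against 3.55%), and of these 4 all but Atp5mk have their probe in the first 66 columns. The limma tests do not change with the base. The median swap mean of the members was -0.014 with EPA and 0.0036 with DHA, against -0.0012 (EPA) and 0.00021 (DHA) over all named genes. With EPA 30 of 64 members had a swap mean above 0, and with DHA 33 of 64.

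Tested jointly over both fatty acids, the members did not pass either. limma on the 2 swap means called 0 of 17403 named genes and unnamed probes at a Benjamini-Hochberg adjusted p of 0.05, thus 0 members, against a background of 0%. The smallest adjusted p, among members as among all, was 0.885. At an unadjusted limma p under 0.05, 0 members were counted against 4.5% of all rows. The smallest unadjusted limma p of a member, 0.069, belonged to Ndufc1, whose probe lies in the first 66 columns. Without those columns 4 members (Cox6c, Ndufa7, Ndufa9 and Uqcrb) had an unadjusted limma p under 0.05. That was 7.84% of 51 members, against 12.7% of rows. The error term here is how far the EPA and DHA samples lay apart. If both were compared with one control RNA, that RNA's own variation is left out.

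**Figure D1:**
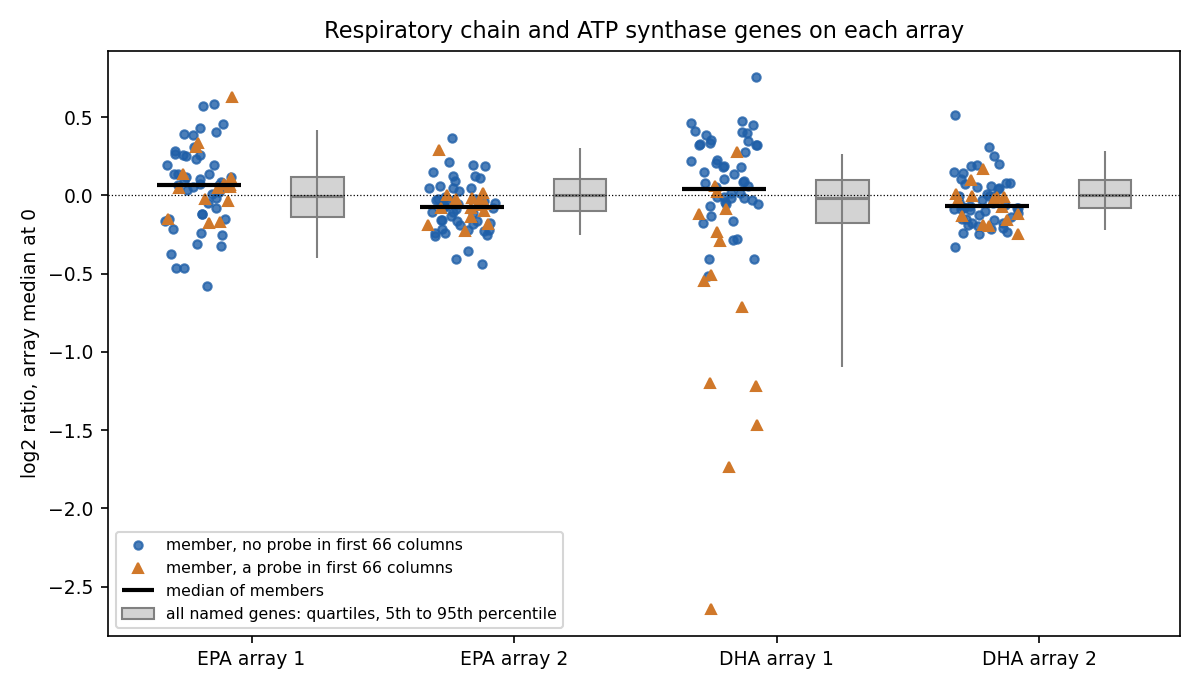
Each point is the log2 ratio of 1 of the 64 genes on 1 array (array median at 0). Triangles are genes with a probe in the first 66 columns, black bars the members' medians, and grey boxes the quartiles of all 9653 named genes with lines from the 5th to the 95th percentile. The members' medians lie above 0 on arrays 1 (0.063 with EPA, 0.038 with DHA) and below 0 on arrays 2 (-0.072 and -0.065), and the values under -1 on DHA array 1 are triangles.

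On single arrays a few members passed 1.5-fold. On EPA array 1 Cox7a2l and Uqcrq were higher (2 of 64, against 1.74% of all named genes) and 0 were lower (against 1.44%), and on DHA array 1 Atp5if1 was higher (1 of 64, against 0.508%). DHA array 1 also put 6 members lower, namely Atp5f1e, Cox5b, Cox7a2, Ndufa8, Ndufc1 and Uqcr11, a share of 9.38% that was near the 9.52% of all named genes. All 6 have their probes in the first 66 columns, and without those columns 0 members were lower there, against 0.845% of genes. EPA array 2 and DHA array 2 put 0 members past 1.5-fold in either direction, against 0.746% (EPA) and 0.787% (DHA) of all named genes higher and 0.114% (EPA) and 0.0725% (DHA) lower.

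Complex I takes electrons from NADH. Its core subunits measured here were Ndufv1, which binds NADH, and the iron-sulfur cluster carriers Ndufv2 and Ndufs8, together with Ndufs3. All 4 had a swap mean above 0 with DHA, between 0.06 and 0.17, and 3 of the 4 had one with EPA. Ndufv2 and Ndufs8, however, lay above 0 on array 1 and below 0 on array 2 with either fatty acid. Their means are thus averages of values of both signs. Ndufv1 had the highest mean of the complex over all arrays, with -0.02 and 0.15 on the EPA arrays and 0.19 and 0.15 on the DHA arrays. Pairs of values such as these are array 1 and array 2 of the swap. Swap means, and the order of genes by them, hold for the fatty acid over control reading. Under the Cy5 over Cy3 reading Ndufv1 would have a mean of -0.03 over all arrays, and Ndufa5 would have the highest of the complex, 0.32. Read as fatty acid over control, the Ndufv1 swap means were 0.07 ± 0.08 with EPA and 0.17 ± 0.02 with DHA, where ± gives the half-difference of the 2 arrays. Its DHA values lay above 0 on both arrays and its EPA values lay on both sides of it.

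The lowest mean of complex I belonged to Ndufa8, an accessory subunit, which was at 0.05 and -0.08 on the EPA arrays and at -1.47 and -0.07 on the DHA arrays. Ndufc1, an accessory subunit of the membrane arm, was at -0.02 and -0.23 with EPA and at -0.71 and -0.25 with DHA. Both have their probe in the first 66 columns. In Ndufa8 the low value of DHA array 1 sets the DHA mean (-0.77 ± 0.70). Ndufc1 lay below 0 on every array, with a DHA mean of -0.48 ± 0.23. Ndufb5, another accessory subunit with its probe there, was at -0.18 and 0.01 with EPA and at -0.55 and 0.17 with DHA. The assembly factor Ndufaf5 was at -0.24 and -0.17 with EPA and at 0.35 and -0.08 with DHA. Ndufa7, an accessory subunit outside those columns, lay below 0 on every array, at -0.05 and -0.26 with EPA and at -0.01 and -0.15 with DHA.

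Complex II oxidises succinate and is also an enzyme of the citrate cycle. Its flavoprotein subunit Sdha had the highest mean of the complex, with 0.01 and 0.12 on the EPA arrays and 0.32 and -0.01 on the DHA arrays. The membrane anchor Sdhd had the lowest, with -0.37 and 0.03 on the EPA arrays and -0.03 and -0.04 on the DHA arrays. Read as Cy5 over Cy3, Sdhc would be the highest of the complex at 0.16 (Sdha at 0.05) and Sdhb the lowest at -0.13 (Sdhd at -0.10). The iron-sulfur subunit Sdhb, with its probe in the first 66 columns, had means of -0.10 ± 0.07 with EPA and -0.10 ± 0.20 with DHA. None of the 6 genes reached 1.5-fold on any array.

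Complex III passes electrons on to cytochrome c. Uqcr10, a small accessory subunit, was at 0.46 and -0.36 on the EPA arrays and at 0.46 and -0.21 on the DHA arrays, so both swaps put array 1 high and array 2 low. Uqcrc1, a large subunit that faces the matrix, did the reverse, at -0.31 and 0.36 with EPA and at -0.52 and 0.51 with DHA. Their swap means were small beside the half-differences: Uqcr10 had 0.05 ± 0.41 with EPA and 0.12 ± 0.34 with DHA, and Uqcrc1 had 0.03 ± 0.34 with EPA and -0.0021 ± 0.52 with DHA. Uqcrb, a small accessory subunit, was below 0 on all 4 arrays with little difference between the arrays of the EPA swap, at -0.15 and -0.16, against -0.06 and -0.16 on the DHA arrays. Its swap means were -0.16 ± 0.01 with EPA and -0.11 ± 0.05 with DHA, well under 1.5-fold, with a joint limma adjusted p of 0.885. Uqcrc2, the partner of Uqcrc1 in the matrix-facing part, was at -0.46 and -0.06 with EPA and at 0.35 and -0.03 with DHA, and its 2 probes differed by 0.41 on EPA array 1. Uqcrq, a small subunit, was at 0.59 and -0.16 with EPA and at -0.16 and -0.13 with DHA. Uqcr11 held the lowest value of all members, -2.64 on DHA array 1, where its probe lies in the first 66 columns. Its other values were 0.07 and -0.05 with EPA and -0.01 on DHA array 2.

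Complex IV, cytochrome c oxidase, carries several subunits that exist in tissue-specific forms. Of the forms typical of heart and skeletal muscle, Cox6a2 was at 0.26 and -0.22 on the EPA arrays and at 0.40 and -0.08 on the DHA arrays. Cox8b, a muscle form in rodents, was at 0.09 and 0.06 with EPA and at 0.02 and 0.06 with DHA. Its ubiquitous counterpart Cox8a was at -0.12 and -0.02 with EPA and at 0.32 and 0.04 with DHA. Cox8b and Cox8a thus lay on opposite sides of 0 on both EPA arrays and on the same side on both DHA arrays, all by less than 1.3-fold.

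Of the remaining isoforms, the hypoxia-inducible Cox4i2 had means of 0.16 ± 0.03 with EPA and 0.02 ± 0.06 with DHA, and its ubiquitous counterpart Cox4i1 had 0.06 ± 0.25 with EPA and -0.06 ± 0.06 with DHA. Cox7a2, the ubiquitous form of Cox7a, was at 0.33 and -0.10 with EPA and at -1.22 and -0.20 with DHA. Cox4i1 and Cox7a2 have their probes in the first 66 columns. No probe was named Cox6a1 or Cox7a1, so no heart-to-ubiquitous pair could be formed for those subunits.

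Among the other complex IV genes, Cox7c lay above 0 on all 4 arrays, at 0.19 and 0.21 with EPA and at 0.06 and 0.07 with DHA. The half-differences were small, 0.0098 with EPA and 0.0045 with DHA, yet the EPA mean of 0.20 stayed under 1.3-fold. Cox7c was 1 of the 5 members with the smallest joint limma p (unadjusted p = 0.137, adjusted p = 0.885). Cox6c, a small subunit, had nearly the same mean with each fatty acid, 0.14 ± 0.25 with EPA and 0.13 ± 0.20 with DHA, but its values turned with the array (0.39 and -0.11 with EPA, 0.33 and -0.06 with DHA). Cox5b was at 0.05 and -0.04 with EPA and at -1.20 and -0.03 with DHA, with its probe in the first 66 columns. Cox7a2l, which takes part in joining complexes III and IV into supercomplexes, had the highest EPA mean of all members read as fatty acid over control, 0.46 ± 0.17, from values of 0.63 and 0.29. Its DHA values were -0.23 and -0.02, and its probe also lies in those columns. Read as Cy5 over Cy3 its EPA mean would be 0.17, and Uqcr10 would be highest at 0.41.

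The ATP synthase consists of the F1 head with its central stalk, the membrane part Fo, and a peripheral stalk. Atp5if1, the protein that inhibits ATP hydrolysis by the enzyme when the membrane potential is lost, was at 0.25 and -0.44 on the EPA arrays and at 0.75 and -0.19 on the DHA arrays. Its DHA mean of 0.28 ± 0.47 had a half-difference larger than the mean and was the highest of all members, as it would be read as Cy5 over Cy3 (0.47). Atp5mg and Atp5me, subunits that hold ATP synthase dimers together, were at 0.19 and -0.40 (Atp5mg) and at 0.57 and -0.22 (Atp5me) with EPA. With DHA they were at 0.45 and -0.25 (Atp5mg) and at 0.01 and -0.22 (Atp5me). All 6 genes of Fo lay below 0 on EPA array 2, and 5 of them lay above 0 on EPA array 1.

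The c-ring of Fo is built from one protein that is encoded by Atp5mc1, Atp5mc2 and Atp5mc3. Their EPA means were 0.11 ± 0.19, -0.17 ± 0.15 and -0.07 ± 0.12 in that order, and their DHA means -0.01 ± 0.09, 0.04 ± 0.06 and 0.14 ± 0.33. On EPA array 1 Atp5mc1 and Atp5mc2 lay on opposite sides of 0 (0.31 and -0.33), and on DHA array 1 Atp5mc3 was the highest of the 3 at 0.47.

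Of the F1 genes, Atp5f1a, the alpha subunit, had means of 0.14 ± 0.04 with EPA and -0.11 ± 0.30 with DHA. The epsilon subunit Atp5f1e was at 0.06 and -0.14 with EPA and at -1.74 and -0.19 with DHA, with its probe in the first 66 columns. Atp5f1c, the gamma subunit of the central stalk, has 2 probes that differed by 1.91 on DHA array 1. The probe inside the first 66 columns read -1.46 there and the probe outside them 0.44. On the other arrays its probes differed by at most 0.07, so the averaged value of -0.51 on DHA array 1 describes neither probe. All 4 peripheral stalk genes (Atp5pb, Atp5pd, Atp5pf and Atp5po) had EPA means below 0 and DHA means above 0. The EPA means were between -0.06 and -0.04 and the DHA means between 0.0035 and 0.18, all under 1.3-fold. Except for the DHA mean of Atp5pb, each of these means was smaller in size than its half-difference. Centred without the first 66 columns, the DHA mean of Atp5pf was -0.02, so the pattern did not hold for that gene. Atp5pb was at -0.12 and 0.04 with EPA and at 0.10 and 0.25 with DHA.

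**Figure D2:**
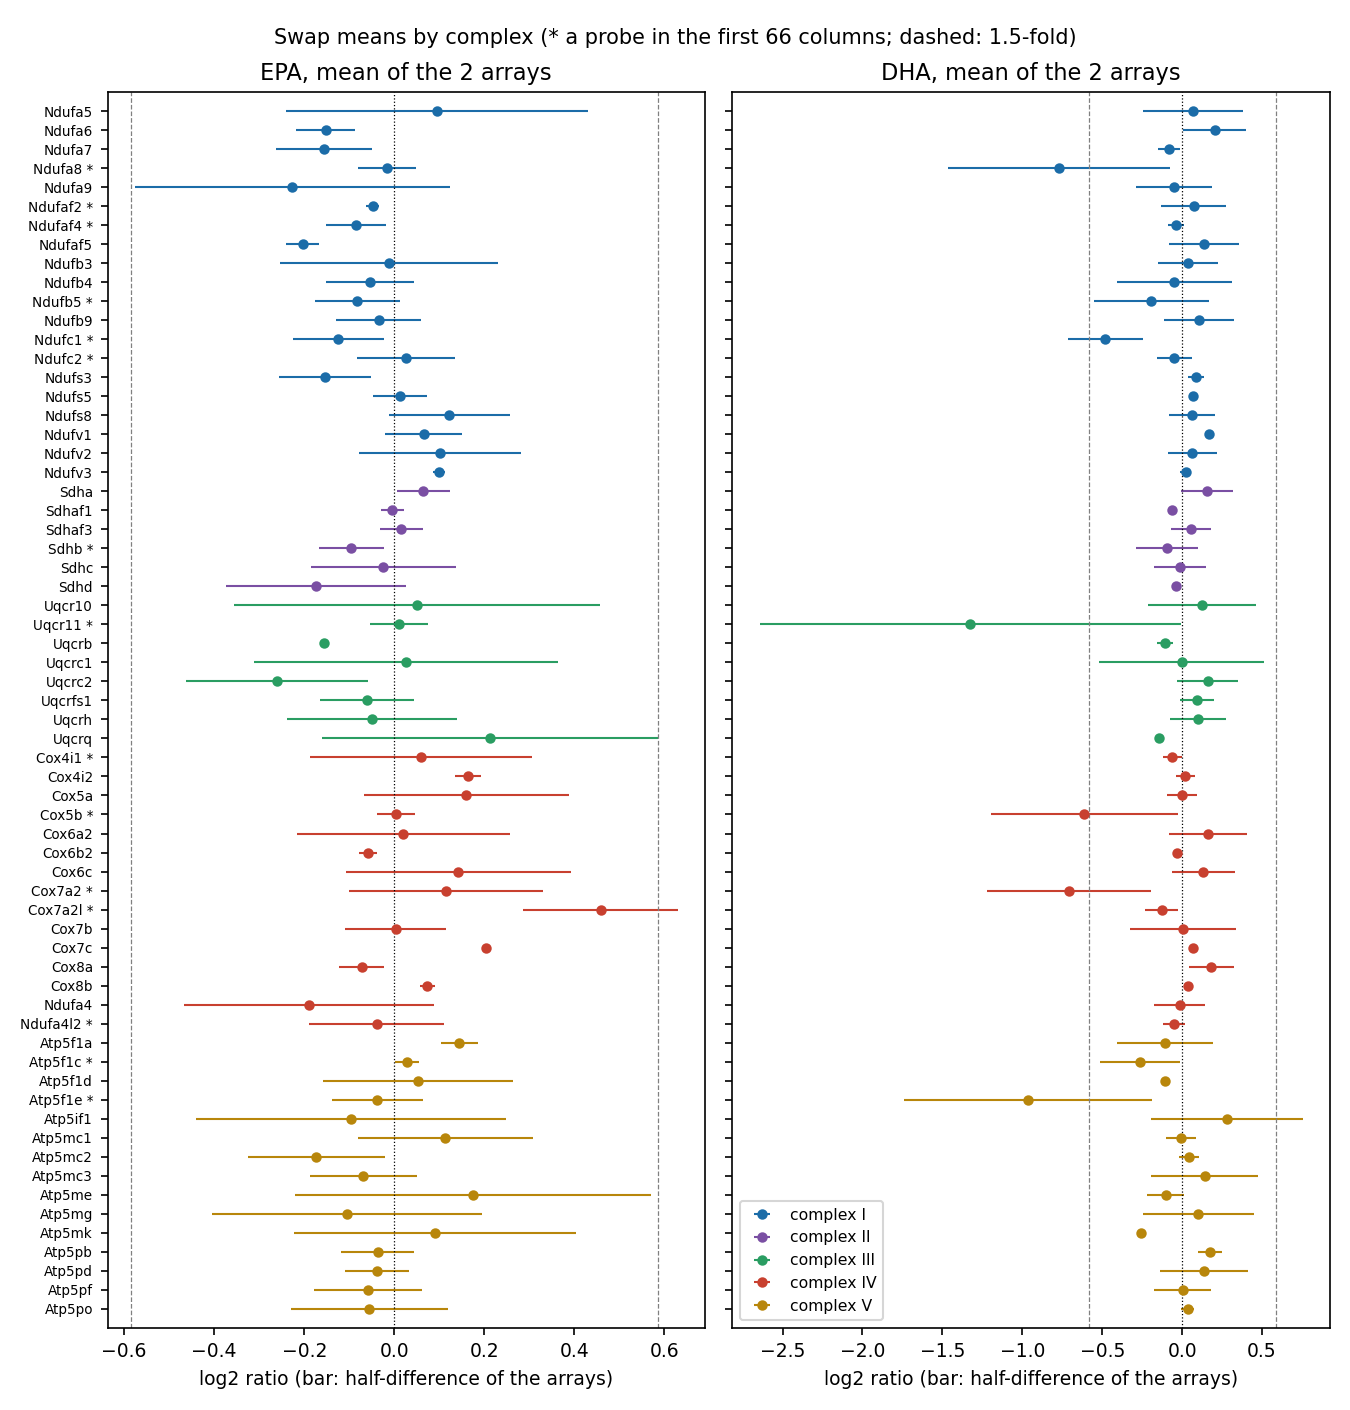
Points are the means of the 2 arrays of a swap (log2 ratio, fatty acid over control) for each of the 64 genes, coloured by complex, with EPA on the left and DHA on the right on separate scales, and bars spanning the half-difference to either side. Stars mark genes with a probe in the first 66 columns and dashed lines 1.5-fold. The DHA means past the lower dashed line belong to 5 starred genes (Ndufa8, Uqcr11, Cox5b, Cox7a2 and Atp5f1e), and bars longer than their distance to 0 are common in every complex.

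The members leaned to one kind of turn with the dye orientation, above 0 on array 1 and below 0 on array 2. Values of all named genes also turned often, but slightly more often the other way round. With EPA 34 of 64 members (53.1%) lay above 0 on array 1 and below 0 on array 2, against 26.8% of all named genes, and 9 (14.1%) lay the other way round, against 28.3%. A further 8 lay above 0 on both arrays (12.5%, against 22% of all genes) and 13 below 0 on both (20.3%, against 22.9%). With DHA 27 members (42.2%) lay above 0 on array 1 and below on array 2, against 24.9%, and 12 (18.8%) the other way round, against 29.4%. There 8 lay above 0 on both (12.5%, against 21.3%) and 17 below on both (26.6%, against 24.4%).

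Without the first 66 columns the pattern was at least as frequent. Of 51 members 28 (54.9%) lay above 0 on EPA array 1 and below 0 on EPA array 2, against 26.1% of 7223 named genes. For DHA the count was 26 of 51 (51%, against 28.3%). The members' medians on arrays centred without those columns were 0.12 (array 1) and -0.09 (array 2) for EPA, and 0.11 (array 1) and -0.09 (array 2) for DHA. Of the ATP synthase genes 11 of 14 turned this way with EPA and 8 of 14 with DHA. In complex I the counts were 7 of 15 with EPA and 8 of 15 with DHA, and with either fatty acid they were 4 of 10 in complex IV, 3 of 5 in complex II and 3 of 7 in complex III.

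**Figure D3:**
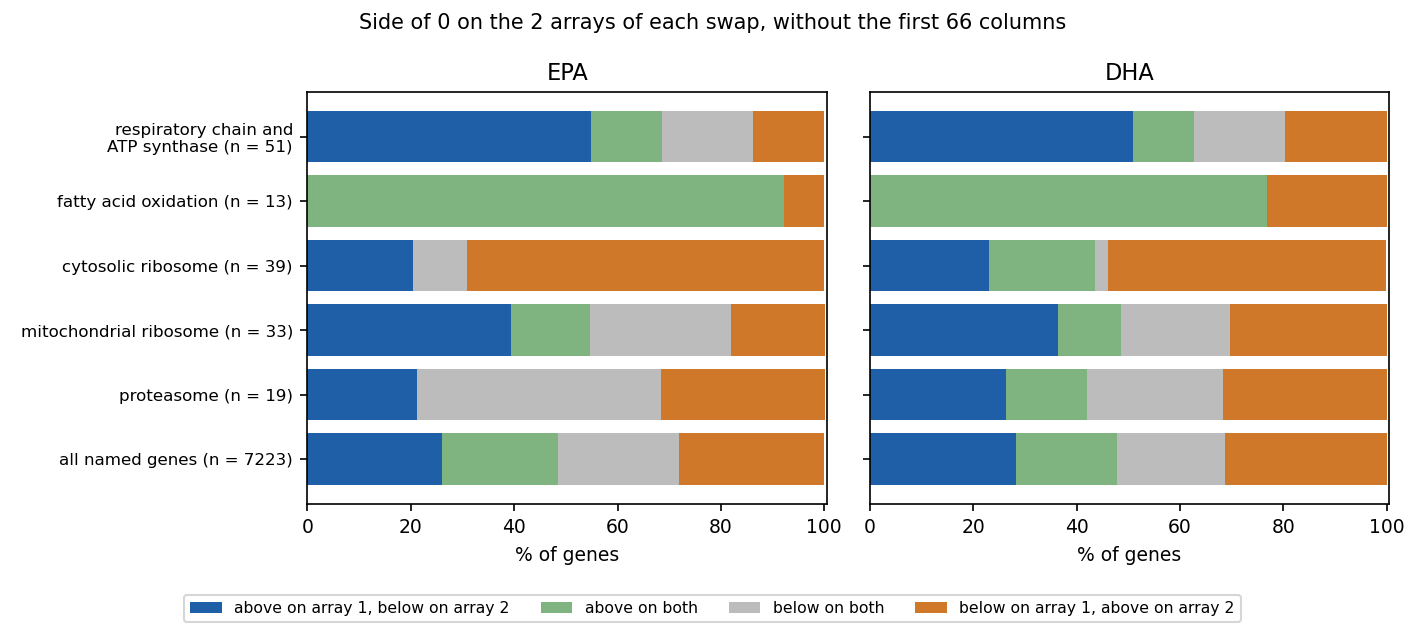
Bars give the percentage of genes on each side of 0 on the 2 arrays of a swap, without the first 66 columns, for EPA on the left and DHA on the right, with the number of genes beside each list. The respiratory chain and ATP synthase bars are led by genes above 0 on array 1 and below on array 2 (28 and 26 of 51), the cytosolic ribosome by the reverse (27 and 21 of 39), and fatty acid oxidation by genes above 0 on both.

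The size of this turn was tested with limma on the half-difference between the arrays of each swap, 1 value per fatty acid, over all rows. With all features 0 of 17403 rows passed, thus 0 members, and the smallest adjusted p was 0.389. At an unadjusted limma p under 0.05 there were 13 members (20.3%), against 12.8% of all rows. Without the first 66 columns 12 of 51 members (23.5%) passed limma at a Benjamini-Hochberg adjusted p under 0.05, against 8.17% of 12608 rows. In 9 of the 12 array 1 was above array 2 (17.6% of members, against 2.67% of rows), and in 3 array 2 was above array 1 (5.88%, against 5.5%). Under the Cy5 over Cy3 reading, both half-differences would contain any control RNA shared between EPA and DHA, and these p-values would be too small. Read as fatty acid over control, that control drops out if both orientations used the same extracts. With different extracts a part of it may remain.

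This test is also the test against control under the Cy5 over Cy3 reading. In that reading, without the first 66 columns, the 9 genes would be higher and the 3 lower in supplemented cells than in control cells, with the half-difference of array 1 minus array 2 as their log2 ratio. The members' median would then be 0.085 with EPA and 0.093 with DHA. Read as fatty acid over control, none of the 12 passed, and the joint limma test without those columns called 0 members against 0.0476% of rows. The files alone do not settle which reading holds.

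**Figure D4:**
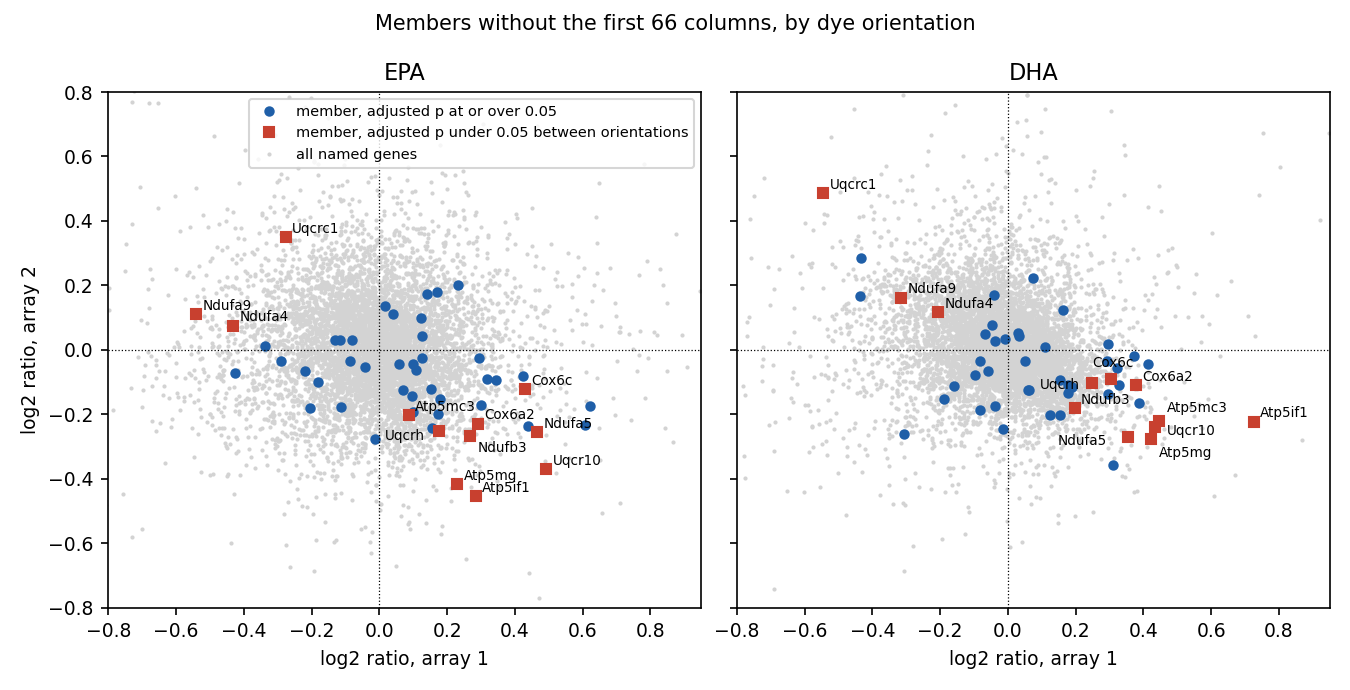
Each point is a gene without the first 66 columns, placed by its log2 ratio on array 1 (horizontal) and array 2 (vertical) of the EPA swap on the left and the DHA swap on the right; grey genes beyond the axis limits are not drawn. The 12 named squares passed limma between orientations: 9 lie at the lower right and 3, Uqcrc1, Ndufa9 and Ndufa4, at the upper left in both panels.

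The largest of the 9 was Atp5if1, whose values centred without those columns were 0.28 and -0.45 with EPA and 0.73 and -0.22 with DHA. The half-difference of its arrays was 0.42 ± 0.05 (SE, 2 swaps; limma adjusted p = 0.00847). Uqcr10 followed at 0.38 ± 0.05 (limma adjusted p = 0.0107). Each was above 0 on both arrays 1 and below 0 on both arrays 2, as were 14.6% of all named genes. Both genes were chosen by this difference, so the lack of overlap between their orientations adds no support.

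Ndufa5, the accessory subunit whose promoter is shown above, was at 0.47 and -0.25 with EPA and at 0.36 and -0.27 with DHA in this centring, a half-difference of 0.34 ± 0.05 (limma adjusted p = 0.0140). Atp5mg had 0.34 ± 0.04 (limma adjusted p = 0.0138). The remaining 5 were smaller: the muscle form Cox6a2 (0.25), Cox6c (0.24), Atp5mc3 (0.24), the complex I subunit Ndufb3 (0.23) and the complex III hinge protein Uqcrh (0.19), with limma adjusted p between 0.0262 and 0.0482. Cox7b lay just outside the threshold at 0.23 (limma adjusted p = 0.0519).

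The 3 genes that ran the other way were Uqcrc1, Ndufa9 and Ndufa4. Uqcrc1 was at -0.28 and 0.35 with EPA and at -0.55 and 0.49 with DHA, a half-difference of -0.41 ± 0.06 (limma adjusted p = 0.0159). Ndufa9, an accessory subunit at the joint of the 2 arms of complex I, had -0.28 ± 0.05 (limma adjusted p = 0.0231), and Ndufa4, a subunit now assigned to complex IV, had -0.21 ± 0.05 (limma adjusted p = 0.0448). By complex, 3 of 15 genes of complex I, 0 of 5 of complex II, 3 of 7 of complex III, 3 of 10 of complex IV and 3 of 14 of the ATP synthase passed.

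**Figure D5:**
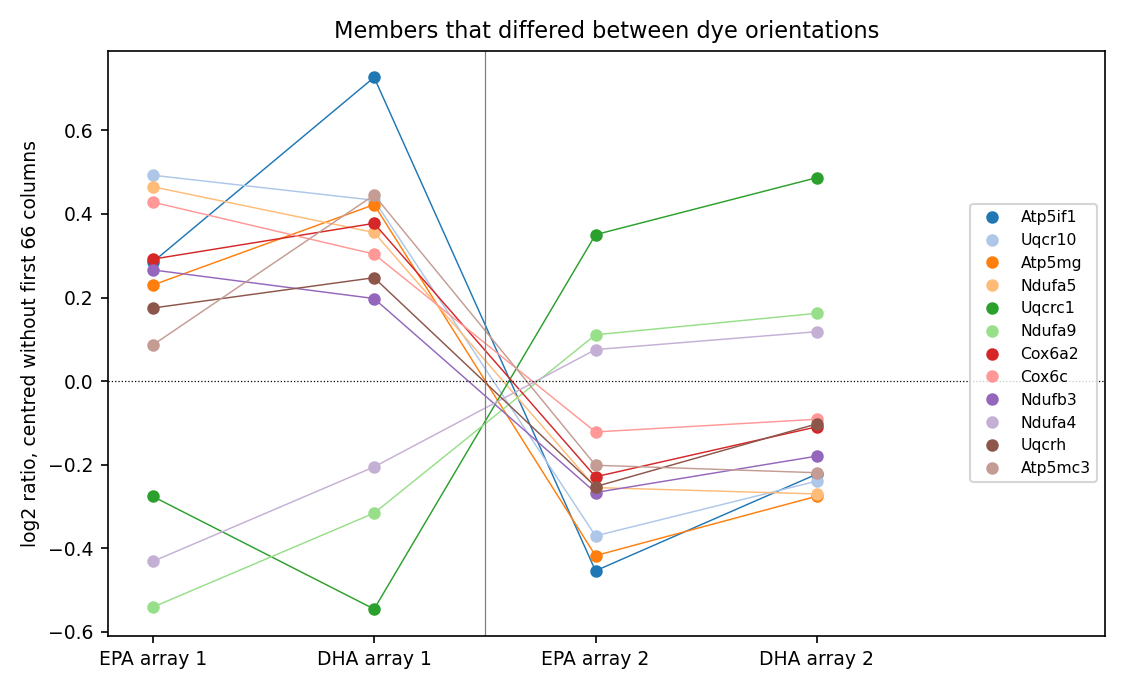
Lines join the log2 ratios of the 12 members that passed limma between dye orientations, on arrays centred without the first 66 columns; the 2 arrays with supplemented cells in Cy5 are left of the grey line and the 2 with supplemented cells in Cy3 right of it. The genes were chosen by this difference, so the lack of overlap between the orientations adds no support. Of all 7223 named genes, 14.6% lay above 0 on arrays 1 and below 0 on arrays 2, and 17.5% the other way round. Atp5if1 (0.73) and Uqcrc1 (-0.55), both on DHA array 1, are the extremes.

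Other lists were set beside the members. Between orientations, without the first 66 columns, limma called 0 of 12 genes of the citrate cycle, 1 of 17 electron carriers and assembly factors (Cox17, a copper chaperone of complex IV), 1 of 8 mitochondrial carriers, 1 of 12 regulators of mitochondrial genes, 4 of 33 mitochondrial ribosomal protein genes and 0 of 19 proteasome genes, beside 12 of 51 members and 8.17% of all rows. Whether the lists differ from the members was not tested. Genes of fatty acid oxidation were called in 4 of 13, all with array 2 above array 1 (Cpt1a, Ech1, Hadha and Hadhb), and genes of the cytosolic ribosome in 19 of 39, of which 18 had array 2 above array 1. Some probes on the first arrays share nearly one deposited value, 30 on EPA array 1 (-0.765) and 31 on DHA array 1 (-0.438), and no member probe is among them. Of the 19 ribosomal protein genes called, 13 have such a probe on EPA array 1 and 11 on DHA array 1, and the part of these values in the calls was not tested. The members and the ribosomal protein genes leaned in opposite ways, with a median half-difference (array 1 minus array 2) of 0.10 over the 51 members and -0.28 over 39 ribosomal protein genes, against -0.00027 over all rows.

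Read as fatty acid over control, with all features, the 13 genes of the citrate cycle had median swap means of -0.015 (EPA) and 0.012 (DHA), and the 24 electron carriers and assembly factors had -0.0064 (EPA) and 0.035 (DHA). The medians were -0.05 (EPA) and -0.07 (DHA) over 11 mitochondrial carriers, -0.03 (EPA) and -0.01 (DHA) over 13 regulators, and -0.02 (EPA) and -0.03 (DHA) over 43 mitochondrial ribosomal protein genes. Outside the mitochondrion they were 0.08 (EPA) and 0.17 (DHA) over 50 cytosolic ribosomal protein genes and -0.08 (EPA) and 0.0082 (DHA) over 33 proteasome genes. The 18 genes of fatty acid oxidation had 0.18 (EPA) and 0.34 (DHA). That list helped to choose the reading, so its direction is not independent evidence.

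Markers of the cells in such cultures were measured beside the members. In swap means the median of the 17 cardiomyocyte markers was 0.04 (EPA) and -0.01 (DHA). That of the 14 fibroblast and matrix markers was 0.07 (EPA) and 0.01 (DHA), that of 5 smooth muscle markers 0.09 (EPA) and -0.03 (DHA), that of 8 endothelial markers 0.01 (EPA) and 0.05 (DHA), and that of 10 macrophage and leukocyte markers -0.09 (EPA) and 0.04 (DHA). Between orientations, without the first 66 columns, limma called 1 of 13 cardiomyocyte, 7 of 12 fibroblast and matrix, 2 of 5 smooth muscle, 0 of 7 endothelial and 1 of 7 macrophage markers, beside 8.17% of all rows. Array 2 was above array 1 in all of these calls except 2 fibroblast and matrix markers, S100a4 and Thy1. Of the called genes, 3 fibroblast and matrix markers (Bgn, Col1a2 and Fn1) hold the repeated value on both first arrays, and the smooth muscle marker Tagln on DHA array 1. Their part in the members' values was not tested.

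No member passed the size rule between EPA and DHA within each orientation, with 0 of 64 higher with EPA than with DHA and 0 lower, against 0.0414% and 0.0207% of all named genes, with values read as log2. At 1.3-fold the counts were also 0, against 0.269% and 0.135%. If the values were log10, 1 member would be higher at 1.5-fold (Cox7a2l, against 3.41%) and 2 lower (Atp5if1 and Atp5pb, against 2.59%). On arrays 1 alone 9 members were higher with EPA (14.1%, against 12.7%) and 3 lower (Ndufa6, Ndufaf5 and Uqcrc2, 4.69%, against 0.943%), and on arrays 2 alone 0 were higher (against 0.135%) and 0 lower (against 0.342%). The 9 were Atp5f1e, Atp5mk, Cox5b, Cox7a2, Cox7a2l, Ndufa8, Ndufc1, Uqcr11 and Uqcrq. All of them but Atp5mk and Uqcrq have their probe in the first 66 columns. The 5 largest differences by the smaller of the 2 orientations were led by Cox7a2l, whose EPA value exceeded its DHA value by 0.86 on arrays 1 and by 0.31 on arrays 2. Its probe lies in the first 66 columns, where the 13 members with all their probes had a median difference of 0.69 on arrays 1 and all 2430 such named genes one of 0.38.

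The other 4 genes were lower with EPA than with DHA on both arrays. For all 5 genes the agreement holds for the fatty acid over control reading: as Cy5 over Cy3, the difference on arrays 2 turns sign and the orientations no longer agree. Atp5if1 differed by -0.50 on arrays 1 and -0.25 on arrays 2, and Atp5mg by -0.26 and -0.16. Atp5pb, a peripheral stalk subunit, differed by -0.22 and -0.21, and the Rieske iron-sulfur protein Uqcrfs1 by -0.15 on either array. Atp5pb and Uqcrfs1 differed by nearly the same amount in both orientations, and each stayed below 1.3-fold. If the controls were separate, each difference also holds the difference between the controls.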

How the data were processed

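RNA ratios of EPA- or DHA-supplemented against control cardiomyocyte cultures were measured on 4 two-colour arrays. The authors deposited, for each feature of an array, a single number near 0 that was taken as a log2 ratio. How the scans were corrected and normalized, the base of the logarithm and its direction are not stated. Of 22575 features 2075 were empty and 20500 had values on all arrays. Because only ratios were used, spot brightness is unknown, and the number of arrays limits the precision.

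Probes were named from the platform annotation, the probes of a gene averaged and 7750 unnamed probes kept as rows (17403 rows). Array medians were set to 0. Members were called by size (1.5-fold on both arrays of a swap, alternatively 1.3-fold) and by limma 3.58.1 in R 4.3.3 (lmFit, eBayes, Benjamini-Hochberg over all rows, threshold 0.05) on swap means and on half-differences. The script was checked on simulated data. The replicate numbers mark the dye orientation, per the labels, and the EPA and DHA half-differences correlated at r = 0.31 over 20500 probes, so fits with and without a replicate block were run.

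Named genes are, per complex, those with the highest and lowest mean over the arrays; the 5 smallest p of each limma test; the 5 largest EPA to DHA differences; isoform pairs; and genes whose probes differ by over 0.5. Other genes named were chosen after their values were seen, as members of a role or complex. The members, lists, tests and the 66 columns were chosen with earlier results of these data known. Alternatives covered direction, log base, columns, centring, scaling, quantile normalization, local medians, single probes, symbols and leaving out each array.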

Additional observations from a re-analysis of the deposited data

Results flagged for a closer look

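For 5 of 64 members (7.81%) both EPA values lay on one side of 0 and both DHA values on the other, against 8.49% of all named genes, and the difference was not tested. The EPA mean minus the DHA mean was 0.59 for Cox7a2l, 0.29 for Atp5f1c, -0.26 for Cox8a, -0.36 for the complex I accessory subunit Ndufa6 and -0.24 for Ndufs3. The probe of Cox7a2l and 1 of the 2 probes of Atp5f1c lie in the first 66 columns, where DHA array 1 held most of its values under -1. Cox8a, Ndufa6 and Ndufs3 have no probe there. Centred without those columns, however, Ndufa6 was at 0.37 and -0.02 on the DHA arrays and so lay on both sides of 0. The remaining probe of Atp5f1c was then at 0.12 and -0.03 with EPA and at 0.41 and -0.04 with DHA. It thus lay on both sides of 0 with either fatty acid. Its EPA mean of 0.05 was then below its DHA mean of 0.18, the reverse of the order with all features. With all features, the pattern of the 5 genes rests on the fatty acid over control reading. As Cy5 over Cy3 the values of array 2 turn.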

How the results depend on the processing

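With all features, log2 values and either direction read, 0 members were called against control by the size rule or by the joint limma test, and arrays as deposited, scaled to equal spread, with local column medians removed, with single probes as rows or with updated symbols gave 0 as well. Leaving out the first 66 columns moved the limma count between dye orientations to 12, and hence the joint count under the Cy5 over Cy3 reading to 12; that reading was combined with those columns after the data were seen. Its median of the members was 0.0848 with EPA and 0.0935 with DHA. Removing local column medians instead of the columns left the count between orientations at 0, so the 12 calls rest on that choice; the cause was not tested. Quantile normalization called Atp5if1, 1 member in each case, between orientations (half-difference of array 2 minus array 1 of -0.62, limma adjusted p = 0.0484) and in EPA minus DHA (-0.77 on arrays 1 and -0.65 on arrays 2). Read as log10, an alternative added after the data were seen, 1.5-fold was reached by 2 members with EPA, 4 with DHA and 3 in EPA minus DHA, because the threshold then lies nearer 0. With 1 array of a swap left out the rule asks for less, and the counts ran between 0 and 2 for EPA, 0 and 7 for DHA and 0 and 12 for EPA minus DHA, where the highest counts come from arrays 1 and stand beside 3.18%, 10% and 13.7% of all named genes; the medians ran between -0.072 and 0.063 for EPA and between -0.065 and 0.038 for DHA. The test between orientations needs both arrays of a swap and was not run with one left out. In limma over the 4 arrays as separate samples, the replicate block (array number) changed no call: 0 members jointly and 0 in EPA minus DHA, with and without it. Counts of members above 0 on array 1 and below on array 2 stayed within 1.5 times of the main counts under every alternative that was run.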
